A study of Homo sapiens with 8 samples.

Results

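TSPAN2, SCML1 and TDG are 3 protein-coding genes of the 22674 RefSeq genes measured here, chosen by their FPKM, which rose at least 25% over the control mean with both siRNAs against the lincRNA SLINKY in both cell lines. All 3 were among the 11365 genes with a mean of at least 1 FPKM that were analysed across the libraries. The RNA came from A498 and 786-O, established lines of clear cell renal cell carcinoma (ccRCC), each transfected with 50 nM of siRNA for 16 h using Lipofectamine 2000. Each line gave 2 libraries with a non-targeting control siRNA (NTC) and 1 library with each of SLINKY siRNA 1 and siRNA 2, 8 libraries in all. The labels do not say that the NTC libraries came from separate cultures, so the spread between libraries may be technical. Both SLINKY siRNA libraries of a line have no replicate of their own, and each cell line derives from a single tumor.

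TSPAN2 encodes a tetraspanin, a family of small proteins that pass through the membrane several times and gather integrins and other partners into membrane microdomains. SCML1 encodes a relative of the Drosophila Polycomb group protein Sex comb on midleg, with a SAM domain through which such proteins bind each other, and lies on the X chromosome. TDG encodes thymine DNA glycosylase, a base excision repair enzyme that removes thymine or uracil mispaired with guanine, and also the oxidised forms of methylcytosine made by TET enzymes during active DNA demethylation.

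On hg19 (GRCh37), TSPAN2 lay on the minus strand at chr1:115590633-115632121, SCML1 on the plus strand at chrX:17755592-17773105, and TDG on the plus strand at chr12:104359593-104382656. TSPAN2 and TDG each had 1 RefSeq transcript in the files, and SCML1 had 4 whose values were summed. No entry of another gene overlapped any of these loci. The 250 bases before each RefSeq start are given because each of the 3 genes was chosen for a rise in the same comparisons. They come from the RefSeq tables of GRCh38.p14, a later build than that of the files, and are read 5′ to 3′ on the strand of the gene at chr1:115089504-115089753 for TSPAN2, chrX:17737243-17737492 for SCML1 and chr12:103965622-103965871 for TDG. Capitals mark GGGCGG (the GC box bound by Sp factors), CCAAT and CACGTG (an E-box), searched with TATAAA on both strands.
TSPAN2: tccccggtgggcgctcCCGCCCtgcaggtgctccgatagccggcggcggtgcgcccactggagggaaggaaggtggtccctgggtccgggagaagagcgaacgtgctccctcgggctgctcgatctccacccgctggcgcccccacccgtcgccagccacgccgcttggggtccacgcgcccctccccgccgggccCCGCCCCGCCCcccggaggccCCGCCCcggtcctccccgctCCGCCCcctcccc
SCML1: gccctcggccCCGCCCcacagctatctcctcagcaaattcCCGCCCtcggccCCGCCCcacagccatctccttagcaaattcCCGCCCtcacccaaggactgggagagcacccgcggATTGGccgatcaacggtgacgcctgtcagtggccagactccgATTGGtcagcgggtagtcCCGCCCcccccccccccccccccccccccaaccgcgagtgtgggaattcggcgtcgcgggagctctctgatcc
TDG: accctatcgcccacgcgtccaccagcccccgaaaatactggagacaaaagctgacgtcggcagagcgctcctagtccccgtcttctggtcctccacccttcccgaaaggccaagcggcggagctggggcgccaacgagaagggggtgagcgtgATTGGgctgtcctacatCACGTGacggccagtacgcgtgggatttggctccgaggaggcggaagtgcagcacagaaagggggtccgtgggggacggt

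The upstream sequence of TSPAN2 held 5 GC boxes, of which a neighbouring pair shares a base, and that of SCML1 also held 5, while TDG had 0. CCAAT was found 2 times in SCML1, 1 time in TDG and 0 times in TSPAN2, and CACGTG only in TDG, 1 time. TATAAA was in none of the 3. Of 35116 RefSeq promoters, 42.6% held GGGCGG, 32.0% CCAAT, 10.7% TATAAA and 6.34% CACGTG in the same window, so no motif searched was shared by the 3 genes. The sequences were 79.2% G and C in TSPAN2, 69.2% in SCML1 and 64.0% in TDG, against a median of 58.0%, with 30, 20 and 22 CpG sites against a median of 11. An unbroken run of 26 C bases stands in the SCML1 sequence, and 1 of the 35116 promoters held a run of C or G that long.

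The target of the siRNAs was examined first. SLINKY, a long intergenic RNA at chr7:106415457-106436010 on hg19, was at 14.6 and 16.1 FPKM in the A498 NTC libraries and at 1.64 and 3.01 FPKM with siRNA 1 and siRNA 2, reductions of 89.3% and 80.3%. In 786-O, it went from 1.45 and 1.39 FPKM to 0.0569 and 0.594 FPKM, reductions of 96.0% and 58.2%. Of 9 renal and epithelial markers 8 matched an entry, and NDUFA4L2 did not. The matched markers included PAX8, the renal lineage factor, between 39.2 and 48.1 FPKM, its relative PAX2 between 1.06 and 1.84 FPKM, EPAS1, a hypoxia-inducible factor subunit, between 7.0 and 10.3 FPKM and VIM, the mesenchymal filament protein, between 2020 and 3040 FPKM, while CA9, a hypoxia target usual in ccRCC, stayed between 0 and 0.559 FPKM. The summed level of the 8, most of it VIM, was 3120 to 3620 FPKM in NTC and 3070 to 3770 FPKM in knockdown libraries. With knockdown PAX2 stood at -0.15 (SE 0.097), PAX8 at -0.077 (SE 0.045) and EPAS1 at 0.071 (SE 0.050) on the log2(FPKM + 0.1) scale. Of the 7 markers tested, 2 stood above 0, and 0 had an unadjusted p under 0.05 for knockdown by limma. None of 8 markers of blood, endothelial or liver cells reached 1 FPKM in any library (0 of 8), PTPRC and CD3E were listed at 0, and the summed level of these 8 was 0.0771 to 0.623 FPKM in NTC and 0.192 to 0.622 FPKM in knockdown libraries. The depth, estimated from the files, was about 25107262 to 64643830 reads per library.

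TSPAN2 was the gene with the largest rise of the 3. In A498 it stood at 1.01 and 1.15 FPKM in the NTC libraries, at 1.81 FPKM with siRNA 1 and at 2.12 FPKM with siRNA 2. In 786-O it stood at 4.48 and 4.65 FPKM in NTC, at 8.17 FPKM with siRNA 1 and at 6.78 FPKM with siRNA 2. Every knockdown library lay above both NTC libraries of its line, and the order of the siRNAs was not the same in the lines. Against the NTC mean, these values were 1.62-fold and 1.88-fold in A498 and 1.77-fold and 1.47-fold in 786-O. In bulk RNA, a change in the share of cells with a transcript and a change in RNA per cell cannot be told apart, here or for the other genes.

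SCML1 rose from 2.76 and 2.58 FPKM in the A498 NTC libraries to 3.94 and 3.89 FPKM with siRNA 1 and siRNA 2. In 786-O its NTC libraries were at 9.33 and 8.28 FPKM and its knockdown libraries at 13.6 and 11.6 FPKM. The groups did not overlap in either line, and both siRNAs gave nearly the same level in A498. The folds over the NTC mean were 1.46 and 1.44 in A498 and 1.54 and 1.31 in 786-O.

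TDG had the smallest rise and the narrowest range. The A498 NTC libraries held 3.17 and 3.62 FPKM, and the siRNA 1 and siRNA 2 libraries 4.45 and 4.94 FPKM. The 786-O NTC libraries held 6.24 and 6.07 FPKM, and the knockdown libraries 7.99 and 8.55 FPKM. siRNA 2 gave the higher level in both lines, and no NTC library reached a knockdown library of its line. These were 1.30-fold and 1.44-fold over NTC in A498 and 1.29-fold and 1.38-fold in 786-O.

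**Figure D1:**
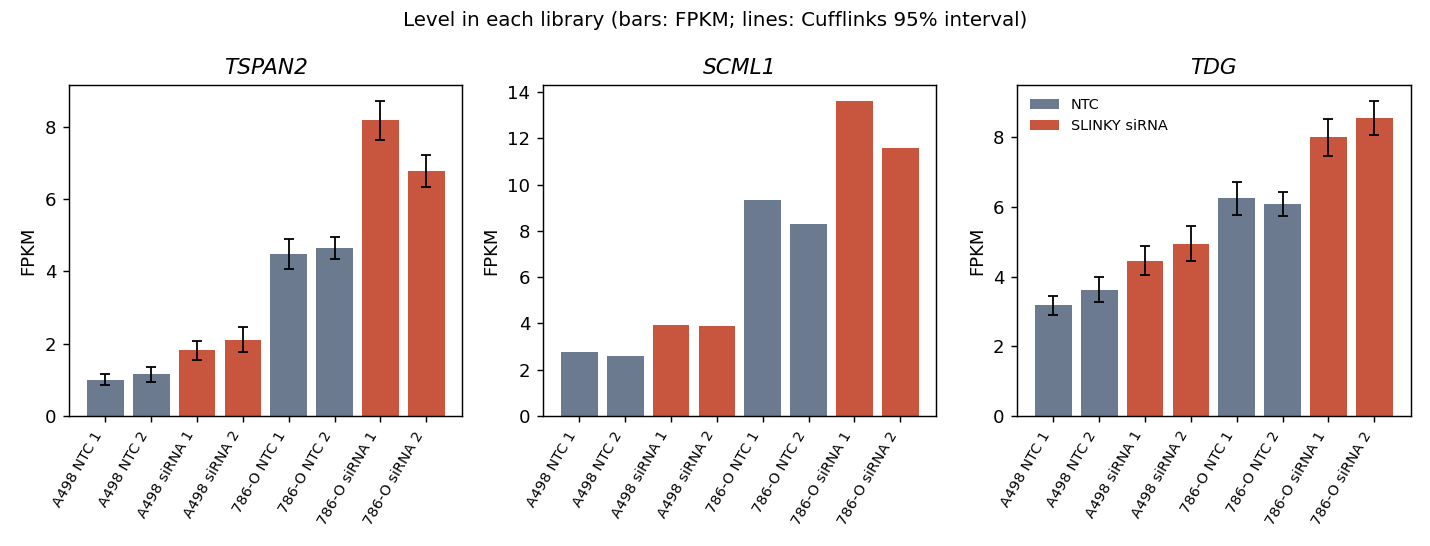
Level of TSPAN2, SCML1 and TDG in FPKM (y axis, from 0) in each of the 8 libraries (x axis). Bars are the FPKM of the library. Lines are the 95% interval that Cufflinks gave for the transcript, drawn for TSPAN2 and TDG and not for the summed SCML1. All 4 knockdown bars of each gene stand above the NTC bars of the same line, and all 786-O bars above the A498 bars of the same gene.

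As group means, TSPAN2 was 1.08 ± 0.102 FPKM in A498 NTC and 1.96 ± 0.213 FPKM in A498 knockdown (SD, n = 2 each), and 4.56 ± 0.118 against 7.48 ± 0.985 FPKM in 786-O. For SCML1 the means were 2.67 ± 0.129 against 3.91 ± 0.0294 FPKM and 8.80 ± 0.739 against 12.6 ± 1.43 FPKM. For TDG they were 3.40 ± 0.317 against 4.70 ± 0.346 FPKM and 6.16 ± 0.121 against 8.27 ± 0.399 FPKM. The knockdown groups pool 2 different siRNAs, so their SD holds the difference between siRNAs as well as that between libraries. The rule chose the genes on this contrast, so their change is described here without a test.

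The rise of each gene was set against the difference of its NTC pair, on the scale log2(FPKM + 0.1). For TSPAN2 the mean change with knockdown was 0.80 in A498 and 0.69 in 786-O, and NTC 2 differed from NTC 1 by 0.18 and 0.052. SCML1 changed by 0.53 and 0.51, and its NTC pair differed by -0.095 and -0.17. TDG changed by 0.45 and 0.42, and its NTC pair differed by 0.19 and -0.040. The median size of the NTC pair difference over all genes tested was 0.109 in A498 and 0.0869 in 786-O. The difference between the siRNAs, siRNA 2 minus siRNA 1, was 0.21 and -0.27 for TSPAN2, -0.015 and -0.23 for SCML1 and 0.15 and 0.097 for TDG. The gap from the highest NTC library to the lowest knockdown library was 0.61 and 0.54 for TSPAN2, 0.48 and 0.31 for SCML1 and 0.29 and 0.35 for TDG. For TDG in A498 that gap was not much wider than the NTC pair itself.

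**Figure D2:**
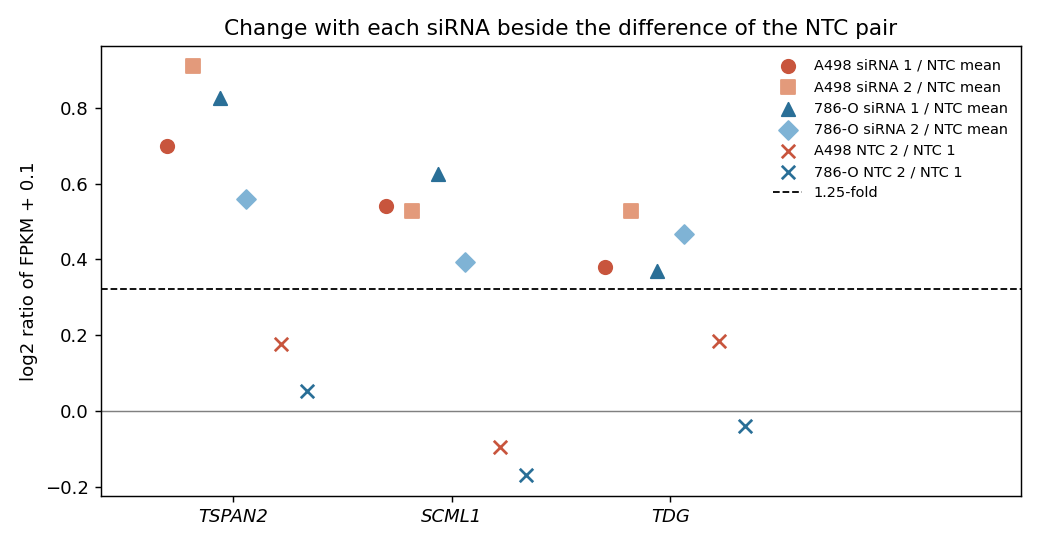
Ratio of each siRNA library to the NTC mean of its line, on the log2(FPKM + 0.1) scale (y axis), for the 3 genes (x axis), beside the NTC 2 to NTC 1 ratio; points are single libraries or pairs and the dashed line is a rise of 25%. All 12 knockdown points lie above the line, and the NTC pairs lie between -0.17 and 0.19.

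Taking 1 NTC library at a time showed where the rise depended on the control. TSPAN2 rose at least 25% in 8 of 8 pairs of a knockdown and an NTC library of the same line. SCML1 passed in 7 of 8, the exception being 786-O siRNA 2 against NTC 1 at 1.24-fold. TDG passed in 7 of 8, the exception being A498 siRNA 1 against NTC 2 at 1.22-fold.

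The files give a 95% interval of each transcript's FPKM within its library, which covers counting and the assignment of reads in that library and not the spread between libraries. The intervals of the single transcripts of TSPAN2 and TDG gave whole read numbers within 0.05 in 16 of 16 values. Among RefSeq entries with a locus of their own and 5 to 200 reads by the same reckoning, 48.2% to 50.1% per library were whole. TSPAN2 had 161 and 127 reads in A498 NTC and 193 and 160 with siRNA 1 and siRNA 2. In 786-O it had 490 and 905 reads in NTC and 900 and 960 with the siRNAs. TDG rested on 378 to 1224 reads in every library. The few reads of TSPAN2 in A498 set wide intervals, 0.848 to 1.17 and 0.947 to 1.36 FPKM in NTC against 1.55 to 2.08 and 1.78 to 2.45 FPKM with siRNA 1 and siRNA 2. The knockdown interval lay above both NTC intervals of its line in 4 of 4 comparisons for TSPAN2 and in 4 of 4 for TDG. Both genes were chosen for a rise in these same libraries, so this separation follows in part from the choice. How often the intervals of other genes separate in this way was not tested. In TDG the closest approach was in A498, where the NTC 2 interval ended at 3.98 FPKM and that of siRNA 1 began at 4.05 FPKM.

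SCML1 has overlapping transcripts, among which Cufflinks divides the reads. NM_001037536 held 86.3% to 99.7% of the summed SCML1 FPKM in the 8 libraries. NM_006746 reached at most 0.382 FPKM and NM_001037540 at most 0.731 FPKM, and NM_001037535 stayed at or under 0.0302 FPKM. The folds of the main transcript alone were 1.48 and 1.62 in A498 and 1.54 and 1.32 in 786-O. Its knockdown interval lay above both NTC intervals in 0 of 4 comparisons, since the NTC 2 intervals ran from 0 to 4.89 FPKM in A498 and from 0.646 to 14.4 FPKM in 786-O. Against the narrower interval of NTC 1, it was above in 4 of 4. SCML1 was also chosen for a rise in these libraries, so that separation too follows in part from the choice. The files give no interval for the summed level of the gene.

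**Figure D3:**
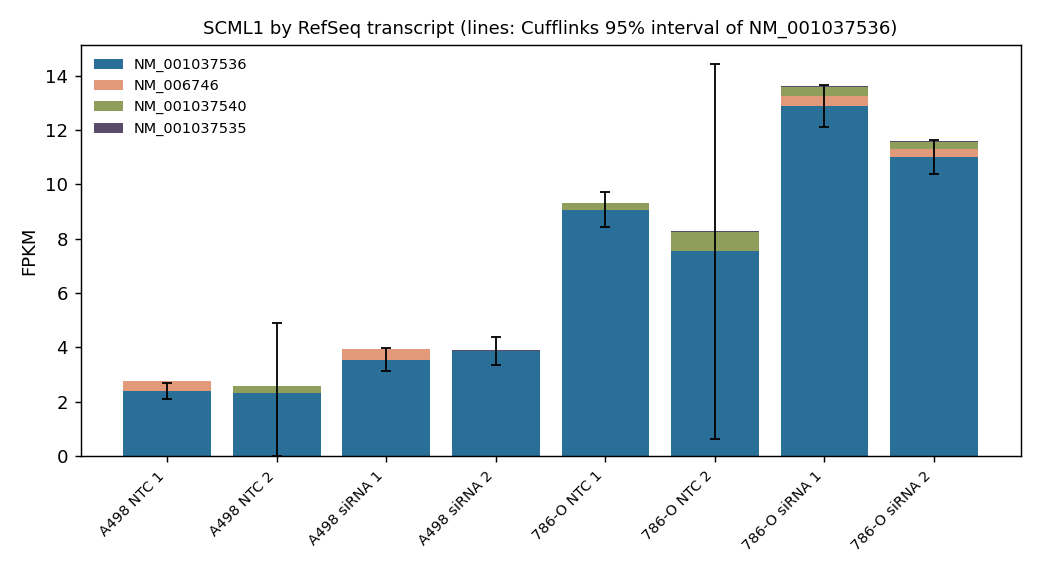
FPKM of the RefSeq transcripts of SCML1 (y axis) in each of the 8 libraries (x axis), stacked, with lines for the Cufflinks 95% interval of NM_001037536. The NTC 2 intervals are far wider than those of NTC 1 in both lines.

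Few genes passed the same rule. Of the 11365 genes tested, 255 (2.24%) rose at least 25% with siRNA 1 in A498, 362 (3.19%) with siRNA 2 in A498, 449 (3.95%) with siRNA 1 in 786-O and 335 (2.95%) with siRNA 2 in 786-O. The NTC 2 and NTC 1 libraries differed that much, in either direction, for 717 genes (6.31%) in A498 and 696 genes (6.12%) in 786-O. The siRNA shares count rises alone, over the mean of the NTC pair, so the NTC shares are not on the same footing. All 4 comparisons were passed by 16 genes (0.141%), of which 12 spanned under 200 bp and were snoRNA or microRNA genes. Among the 10971 longer genes, 4 passed (0.0365%), TSPAN2, SCML1, TDG and the read-through gene INO80B-WBP1, which overlaps INO80B and WBP1 and shares reads with them. With no fold required, all knockdown libraries lay above all NTC libraries of the same line, in both lines, for 745 genes (6.56%).

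Around the threshold, the lowest of the 4 folds was 1.47 for TSPAN2, 1.31 for SCML1 and 1.29 for TDG. It was 1.27 for INO80B-WBP1, whose A498 NTC libraries held 4.16 and 8.38 FPKM and overlapped its knockdown libraries at 8.71 and 7.97 FPKM. Just outside stood WEE1, which encodes a kinase that delays entry into mitosis, with 1.24 as its lowest fold and folds of 1.24, 1.41, 1.51 and 1.35. BCYRN1, a noncoding RNA gene whose longest entry spanned 518928 bp, stood there too, with 1.23. The NTC libraries of BCYRN1 held 14.3 and 21.8 FPKM in A498 and 80.1 and 110 FPKM in 786-O. The gap between the groups, taken as the smaller of the lines, was as large as that of TSPAN2 in 2 genes, of SCML1 in 3 genes and of TDG in 5 genes, each count including the gene itself. This gap lies on the contrast that chose the 3 genes, so their high place follows in part from the choice.

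The 3 genes also differed between the cell lines, a contrast the rule did not use. On the log2(FPKM + 0.1) scale the difference 786-O minus A498, from limma over all 11365 genes with knockdown as a term, was 1.93 (SE 0.083, adjusted p = 3.06e-07) for TSPAN2, 1.67 (SE 0.063, adjusted p = 1.51e-07) for SCML1 and 0.82 (SE 0.056, adjusted p = 4.14e-06) for TDG. That makes 3.81-fold, 3.18-fold and 1.77-fold more in 786-O. The SE comes from all 8 libraries, which the rule also used, and whether the choice favoured a small spread was not tested. With the NTC libraries alone the differences were 1.99, 1.68 and 0.84 (adjusted p = 0.000157, 0.000165 and 0.00116 by limma). The lowest 786-O library was above the highest A498 library by 2.12-fold, 2.10-fold and 1.23-fold. A difference between the lines was common, with 80.5% of the genes tested past an adjusted p of 0.05, 41.4% higher in 786-O and 39.1% higher in A498. By size, 362 genes had a difference in this direction at least as large as that of TSPAN2, 452 as that of SCML1 and 1520 as that of TDG. The change with knockdown was smaller than the difference between lines for each gene, which was 2.57 times as large for TSPAN2, 3.19 times for SCML1 and 1.88 times for TDG in log2 units.

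The knockdown libraries of A498 did not reach the NTC libraries of 786-O for any of the 3 genes. For TSPAN2 the highest A498 value was 2.12 FPKM and the lowest 786-O value 4.48 FPKM. For SCML1 these were 3.94 and 8.28 FPKM, and for TDG 4.94 and 6.07 FPKM. In NTC alone, 786-O held 4.23 times as much TSPAN2, 3.29 times as much SCML1 and 1.81 times as much TDG as A498.

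**Figure D4:**
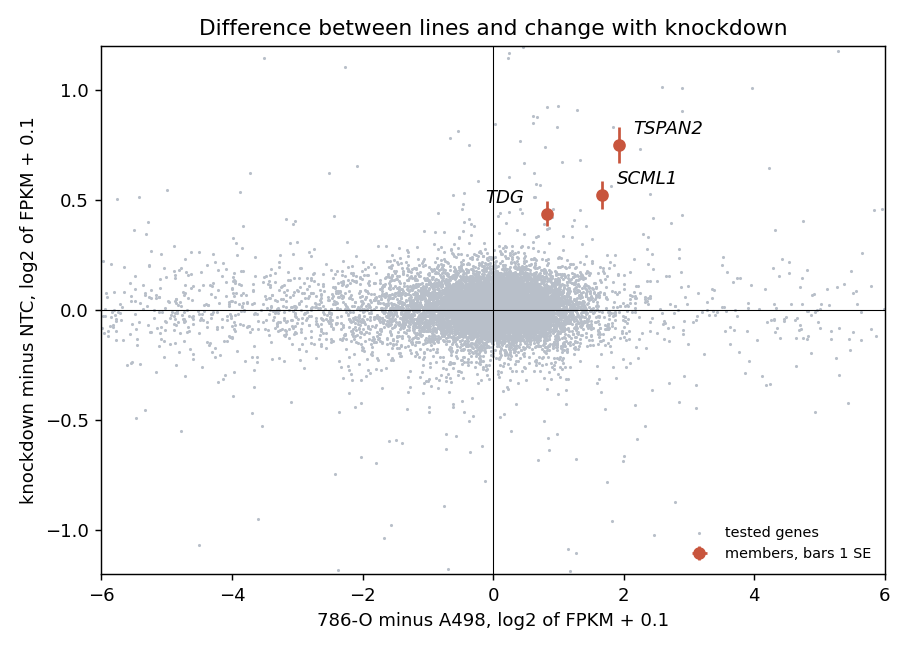
Difference between lines (x axis, 786-O minus A498) and change with knockdown (y axis, knockdown minus NTC), both on the log2(FPKM + 0.1) scale, for all genes tested (grey, with 347 beyond the axes not drawn) and the 3 genes (named, bars 1 SE). TSPAN2 stands at 1.93 and 0.75, SCML1 at 1.67 and 0.52 and TDG at 0.82 and 0.44, above most of the grey points, whose median change with knockdown is 0.0121. The 3 genes were chosen on the y axis contrast, so their height follows from the choice, for which the SE does not allow.

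The relatives of each gene were read next, with limma on all genes tested and Benjamini-Hochberg adjustment. In that fit 1 gene of 11365 (0.0088%) changed with knockdown at an adjusted p under 0.05, while without adjustment 1300 genes (11.4%) were under 0.05, 708 (6.23%) up and 592 (5.21%) down. Of 32 other tetraspanin genes 21 were tested, and 0 passed the adjusted threshold. At an unadjusted p under 0.05, 0 were up and 1 was down, TSPAN5, a partner of the protease ADAM10, at -0.21 (SE 0.084, adjusted p = 0.431 by limma). TSPAN13 and ROM1, the latter of photoreceptor discs, were both at -0.11. The median change of the 21 was -0.0212, beside 0.0121 over all genes. Between lines, 17 of the 21 were higher in A498 at an adjusted p under 0.05 by limma, and 4 in 786-O, as TSPAN2 was. Over all genes tested these shares were 39.1% and 41.4%.

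Of 42 Polycomb group and MBT domain genes, the class of SCML1, 33 were tested and 0 passed the adjusted threshold. At an unadjusted p under 0.05, 4 were up and 1 was down, and the median was 0.0573. RYBP, a subunit of variant Polycomb repressive complexes that binds RING1 proteins, stood at 0.21 (SE 0.058, adjusted p = 0.363 by limma), and MTF2, a Polycomb-like accessory subunit that brings the methylating complex to CpG islands, at 0.17. YAF2, the homolog of RYBP, was also at 0.17 (SE 0.098) but was not among the 4, and stood at -0.046 with 786-O siRNA 2. The 1 gene down was RING1, at -0.099 (SE 0.035, adjusted p = 0.409 by limma). RYBP was at 4.63 and 5.18 FPKM in A498 NTC and at 5.77 and 5.56 FPKM in knockdown, and in 786-O at 4.84 and 4.62 FPKM against 5.93 and 5.13 FPKM. Its knockdown libraries lay above its NTC libraries in both lines, by a smaller step than those of SCML1. SCML2, the nearest named relative of SCML1, was at 0.415 to 1.57 FPKM and below the mean required for testing. Between lines, 17 of the 33 were higher in 786-O, as SCML1 was, and 7 in A498, at an adjusted p under 0.05 by limma. The shares over all genes tested were 41.4% and 39.1%.

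For TDG, 22 of 23 base excision repair genes and 11 of 18 genes of DNA methylation and demethylation were tested, and 0 of either passed the adjusted threshold. In base excision repair 0 were up and 2 down at an unadjusted p under 0.05, and the median was -0.0445. The down pair were LIG1, a DNA ligase, at -0.10 (adjusted p = 0.416 by limma) and MPG, another glycosylase, at -0.097. NTHL1, the glycosylase for oxidised pyrimidines, stood at -0.12 (SE 0.070) and APTX, which repairs abortive ligation ends, at -0.11 (SE 0.12). Neither was under an unadjusted p of 0.05, and APTX was at -0.39 with 786-O siRNA 1 and 0.036 with 786-O siRNA 2. Among the genes of DNA methylation and demethylation 1 was up and 0 were down, with a median of 0.0272. It was DNMT3B, a de novo DNA methyltransferase, at 0.18 (adjusted p = 0.387 by limma). GADD45A, a stress response gene linked to demethylation, stood at 0.088, and UHRF1 at 0.19 with an SE of 0.94. TET3 and MBD3 matched no entry. Not 1 other gene of the 4 lists rose 25% in all 4 comparisons. The lists were made with results of these data known, and their medians are descriptions.

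The genes beside the 3 loci were read for comparison. Within 500 kb lay 27 other RefSeq genes, of which 13 were tested, and 0 of the 13 had an unadjusted p under 0.05 for knockdown in limma, and 0 an adjusted one. Near TSPAN2, NRAS, the GTPase gene, stood at -0.014 and BCAS2, a splicing factor gene, at 0.045, while TSPAN2 itself was at 0.75 in the same fit. Near TDG the tested neighbours ran from -0.17 for CHST11, a chondroitin sulfotransferase gene, to 0.11 for NFYB, which encodes a subunit of the CCAAT-binding factor. Near SCML1 only MIR4768, of 74 bp, was tested, and it was listed at 0 in some libraries. Its closest neighbour NHS, 1.48 kb away, was at 0.198 to 1.34 FPKM. The gene GLT8D2 ends 108 bp from TDG on the opposite strand, at 0.178 to 0.309 FPKM in all libraries, beside 3.17 to 8.55 FPKM of TDG, and the library kit is not stated to keep strand. GENCODE also annotates a TDG pseudogene, TDGP1, on chromosome 12, and how 36 bp reads were divided between it and TDG was not tested.

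**Figure D5:**
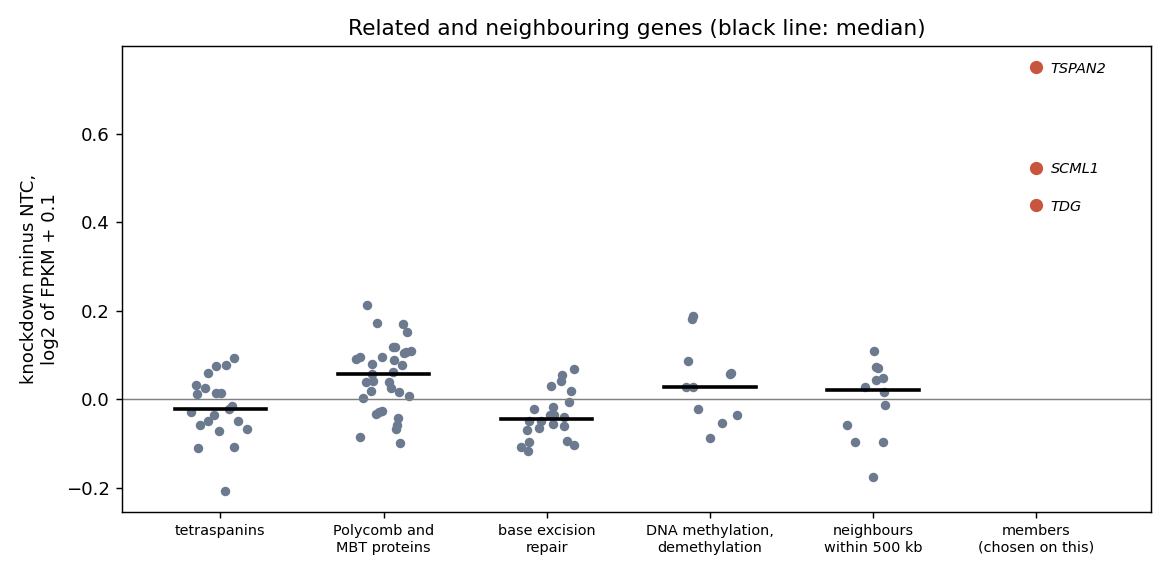
Change with knockdown on the log2(FPKM + 0.1) scale (y axis) of tested genes of the 4 related lists, of 12 tested neighbours that span at least 200 bp, and of the 3 genes themselves (x axis); points are genes and black lines medians. The list medians lie between -0.0445 and 0.0573, and that of the neighbours is 0.0223.

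The pattern over libraries was compared with other genes by Pearson correlation of log2(FPKM + 0.1) over the 8 libraries, among 10970 genes that span at least 200 bp. TSPAN2 was most like GNPDA2 (r = 0.999), an enzyme of glucosamine metabolism, STX12 (0.997), a syntaxin of endosomes, TAF11 (0.995), RBM22 (0.994) and INTS6 (0.992). Among the genes most like SCML1 were STX12 (0.995), ZNF354A and C4orf46 (0.994 each) and TAF11 (0.993), a subunit of the general transcription factor TFIID. TDG was most like EIF4A2 (0.995), an RNA helicase of translation initiation, KLHL12 (0.994), PIGM (0.993), TBC1D22B (0.992) and INIP (0.989). The lines differed for most genes and a high r was common: 672 genes reached 0.95 with TSPAN2, 1132 with SCML1 and 189 with TDG. At 0.99 or more there were 9, 16 and 4. A high r does not mean a change of the same size. With knockdown GNPDA2 stood at 0.23, STX12 at 0.17 and EIF4A2 at 0.16, beside 0.75 for TSPAN2 and 0.44 for TDG. The lowest fold was 1.10 for GNPDA2 and 1.17 for PIGM. Among themselves the 3 genes gave 0.992 for TSPAN2 and SCML1, 0.984 for TSPAN2 and TDG and 0.964 for SCML1 and TDG, over libraries that share lines and treatments. The rule required each of them to rise in the same knockdown libraries, so a high r among them was partly built in.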

How the data were processed

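Illumina TruSeq libraries were sequenced by the authors as single-end 36 bp reads and mapped to hg19. The submitters' processing notes name TopHat2 2.0.0 and Cufflinks 2.0.2. The deposited values are FPKM of RefSeq transcripts, GENCODE lncRNA genes and assembled lncRNAs, computed by the authors per library with a 95% interval; no counts were used here. RefSeq entries were matched to symbols through a RefSeq gene table (41694 of 43150, 96.6%) and FPKM summed per symbol. Folds used FPKM + 0.1. Genes averaging 1 FPKM or more were fitted with limma 3.58.1 in R 4.3.3 (trend, knockdown and cell line as terms, 5 residual degrees of freedom, Benjamini-Hochberg over all genes tested), tested on simulated data. P-values measure the spread between these libraries. Depth was estimated from intronless genes by assuming fragments of 200 bp (SD 80 bp), and read numbers from FPKM and its interval; counting error only is covered. The labels describe each siRNA as a pool and give 16 h before extraction, whereas the study's methods give a later time.

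The members and lists were chosen with earlier results of these data known. The genes named are the 3 genes, others up at least 25% in all 4 comparisons that span at least 200 bp, and the nearest below it. Named too are the 5 most alike per gene, the 3 of each list with the largest change, SLINKY and tested neighbours within 500 kb. VIM, CA9, NDUFA4L2, PTPRC, CD3E, MPG, RING1, SCML2, TET3, MBD3, GLT8D2, NHS and TDGP1 were picked after their values were seen. Some genes that the rule names are not reported here. Alternatives were another pseudocount, no filter, the highest entry per symbol, median-ratio scaling, genes of at least 200 bp, a replicate block and leaving out each library. For the line difference, the NTC libraries alone were also fitted.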

Additional observations from a re-analysis of the deposited data

How the results depend on the processing

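Each change of the 3 genes stayed positive in every alternative run. Every knockdown library lay above both NTC libraries of its line for each gene. Another pseudocount or leaving out a library therefore could not turn the sign. In A498, the change of TSPAN2 was 0.51 and that of SCML1 0.42 with a pseudocount of 1, and that of SCML1 0.63 with the highest entry per symbol. Leaving out 1 library gave, in A498 and then 786-O, 0.70 to 0.91 and 0.56 to 0.83 for TSPAN2, 0.49 to 0.58 and 0.39 to 0.62 for SCML1, and 0.36 to 0.55 and 0.37 to 0.47 for TDG. The genes were chosen by passing the rule, and settings that only drop a comparison or change which genes are tested could not make them fail it. The lowest fold of SCML1 was 1.24 without 786-O NTC 2, and that of TDG 1.24 with a pseudocount of 1 and 1.22 without A498 NTC 1, below the rise of 25%. The 16 genes up in all 4 comparisons became 35 with the highest entry per symbol, 4 with genes of at least 200 bp and 16 to 35 without 1 library, 35 without A498 siRNA 1, 27 without A498 siRNA 2, 30 without 786-O siRNA 1 and 35 without 786-O siRNA 2, where fewer comparisons had to be passed.

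The line difference kept its direction and its side of the threshold in 51 of 51 alternatives. The largest adjusted p was 0.00116 by limma, for TDG with the NTC libraries alone. Without 1 library the difference ran from 1.88 to 1.99 for TSPAN2, 1.63 to 1.72 for SCML1 and 0.78 to 0.86 for TDG. Over all genes, knockdown called 1 gene, 0 with genes of at least 200 bp, and 1 to 3 without 1 library. List genes past the adjusted threshold numbered 0 to 0 in all settings. The NTC and siRNA numbers share no stated batch and correlated at -0.00479 in A498 and 0.00636 in 786-O over all genes tested, and at 0.171 and 0.0226 over genes of at least 200 bp; with a replicate block the 16 genes became 9, and the changes were 0.81 and 0.69 for TSPAN2. Precision is limited by 2 libraries a group and, for TSPAN2 in A498, by 127 to 193 reads; the cause of the changes with settings was not tested except where fewer comparisons entered.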

Other observations

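UHRF1, which brings the maintenance methyltransferase DNMT1 to replicating DNA, stood at 7.03 and 0.514 FPKM in the A498 NTC libraries and at 0.911 and 9.31 FPKM with siRNA 1 and siRNA 2, so that the NTC pair differed as widely as the siRNA libraries did.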
